A study of Mus musculus with 32 samples.

Results

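The metallothionein genes Mt1 and Mt2, 5 zinc and manganese transporter genes (Slc39a14, Slc39a10, Slc39a4, Slc30a1 and Slc30a10) and Mtf1, the gene of the metal-sensing transcription factor, were followed in the livers of 32 mice. These 8 genes were picked from the 52636 genes of the count table, and all 8 passed the filter on low counts, as 15599 genes did in all. Mt2 was chosen by its values, for a large difference between genotypes in the response to thyroid hormone. Differences of Mt2 by hormone and by genotype are therefore given as a description with no test, and so are those of Mt1, its neighbour on the chromosome, which moved with it. The other members, and the carbon tetrachloride (CCl4) response of all 8 genes, were tested.

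Each library was made from polyadenylated liver RNA and has a number of its own in the labels, taken here as 1 mouse, and the 8 groups had 4 mice each. If some numbers were repeat samples of a mouse, p-values would measure that spread instead. Mice carried a knockout of Thrb, the gene of thyroid hormone receptor beta (KO), or were wild type (WT), and all of them, controls included, were fed the PTU/LID chow that keeps the thyroid from making hormone. KO and WT mice received CCl4, a solvent that damages hepatocytes, or oil, and triiodothyronine (T3), the active hormone, or phosphate-buffered saline (PBS). CCl4 was injected at 0.4 µl/g, 9 times over 4 weeks, T3 was given at 1 µg/ml in drinking water in the final week, and livers were sampled for RNA 24 hours past the final injection. The groups were thus KO T3 CCl4, KO PBS CCl4, WT T3 CCl4, WT PBS CCl4, KO T3 oil, KO PBS oil, WT T3 oil and WT PBS oil. The sources used here give neither the targeted exon nor the strain or age of the mice.

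Libraries held 16985162 to 26118055 counts. Thrb kept reads in every KO liver, at 20.1 ± 3.46 CPM (counts scaled to a common library size) in KO T3 CCl4 livers and 40.5 ± 5.35 CPM in WT T3 CCl4 livers (mean ± SD, n = 4 each), and a count over the whole gene cannot tell which part was deleted. The KO against WT difference was called on T3, while on PBS it was not, at -0.23 ± 0.21 on CCl4 (log2 scale, adjusted p = 0.600, ranges overlapping) and -0.72 ± 0.21 on oil (adjusted p = 0.167, without overlap). All 8 hepatocyte markers, among them Alb and Ttr, had counts in every group. By distance from the mean of their group over all tested genes, WT PBS CCl4 replicate 2 and KO PBS CCl4 replicate 3 stood farthest out, at 85.3 and 77.9 on the log2 scale. Values without them are given beside a result where a call, a direction or a fold by over 1.5 times turned on either. In bulk liver, fewer cells of a type and less RNA per cell cannot be told apart.

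Metallothioneins are small, cysteine-rich proteins that bind zinc, copper and cadmium in the cytosol and are made in large amounts by hepatocytes. Free zinc activates the transcription factor MTF1, which binds metal response elements in the promoters of Mt1, Mt2 and the zinc exporter gene Slc30a1. Glucocorticoids and interleukin 6 also induce hepatic metallothioneins. Proteins of the Slc39 (ZIP) family bring metal ions into the cytosol, and those of the Slc30 (ZnT) family take them out of it, to the outside of the cell or into vesicles.

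Promoter windows of Mt1, Mt2 and Slc30a1 are shown because these genes were named above as bound by MTF1. Other members may be its targets too. Each runs from 250 bases before to 30 bases after the RefSeq start on GRCm38.p6. Capitals mark the core of the metal response element, spelled TGCACNC or TGCGCNC and searched on both strands. The Mt1 window lies at chr8:94178839-94179118 on the plus strand, the Mt2 window at chr8:94172368-94172647 on the plus strand and the Slc30a1 window at chr1:191906531-191906810 on the plus strand.
Mt1: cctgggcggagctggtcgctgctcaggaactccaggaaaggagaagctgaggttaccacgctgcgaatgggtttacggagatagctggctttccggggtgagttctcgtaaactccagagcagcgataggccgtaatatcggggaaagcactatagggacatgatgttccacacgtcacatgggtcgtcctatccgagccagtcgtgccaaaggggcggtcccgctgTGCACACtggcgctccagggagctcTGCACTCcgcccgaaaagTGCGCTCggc
Mt2: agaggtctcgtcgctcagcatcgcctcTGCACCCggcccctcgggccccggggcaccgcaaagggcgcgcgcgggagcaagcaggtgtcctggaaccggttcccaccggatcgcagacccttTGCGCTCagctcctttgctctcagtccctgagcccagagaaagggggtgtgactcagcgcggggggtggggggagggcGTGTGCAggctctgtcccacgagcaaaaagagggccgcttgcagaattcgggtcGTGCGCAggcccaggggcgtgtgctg
Slc30a1: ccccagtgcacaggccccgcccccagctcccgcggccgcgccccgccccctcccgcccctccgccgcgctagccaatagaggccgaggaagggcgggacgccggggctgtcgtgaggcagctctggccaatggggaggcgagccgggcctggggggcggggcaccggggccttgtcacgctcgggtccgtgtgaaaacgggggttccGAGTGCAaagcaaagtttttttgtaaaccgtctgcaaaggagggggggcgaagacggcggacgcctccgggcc
The Mt1 window held 3 cores, the Mt2 window 4 and the Slc30a1 window 1, and the Slc30a10 window held 3, of which 2 overlap on opposite strands. No core was found in the windows of Mtf1 or Slc39a10, and of the 8 genes 6 had a window in the table. Of 32851 mouse promoter windows of the same 280 bases, 24.1% held at least 1 core, 6.37% at least 2 and 1.73% at least 3. The half-site AGGTCA, to which thyroid hormone receptors bind, was in none of the members' windows and in 15.3% of all windows. Mt1 cores beginning at bases 3 and 21, and the Mt2 core beginning at base 5, lie past the RefSeq start. Cores outside a window, or near another start of the gene, were not counted. A match is a run of letters, not a shown binding site.

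Mt1 (ENSMUSG00000031765) spans chromosome 8, 94179082 to 94180327, and Mt2 (ENSMUSG00000031762) chromosome 8, 94172664 to 94173568, both on the plus strand of GRCm38. Mt2 shares 432 of its exon bases, 73.5%, with the antisense gene Gm45774, which held 0 to 17 counts per library. The strand setting of the counting is not given in the sources used here, so reads of the pair cannot be told apart. The spliced transcripts of Mt1 and Mt2 shared no run of 50 bases.

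Metallothionein levels differed widely between groups. Mt2 was highest in WT PBS CCl4 livers (851 ± 1060.4 CPM), followed by KO T3 CCl4 (358 ± 212), WT PBS oil (124 ± 70.1), KO PBS CCl4 (88.7 ± 42.5), KO T3 oil (48.5 ± 34.7), WT T3 CCl4 (17.4 ± 13.7), KO PBS oil (13.8 ± 10.6) and WT T3 oil livers (3.08 ± 1.54; mean ± SD, n = 4 each). Neighbours in that order had overlapping ranges, except KO T3 CCl4 and WT PBS oil. The first place rests on 1 liver. With replicate 2 left out the mean of that group was 327 ± 189.4 CPM for Mt2 and 475 ± 288 CPM for Mt1 (SD, n = 3), below those of KO T3 CCl4 livers at 358 and 639.6 CPM. Mt1 ran over the groups from 999.6 ± 1075 CPM in WT PBS CCl4 livers to 6.90 ± 1.84 CPM in WT T3 oil livers.

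**Figure D1:**
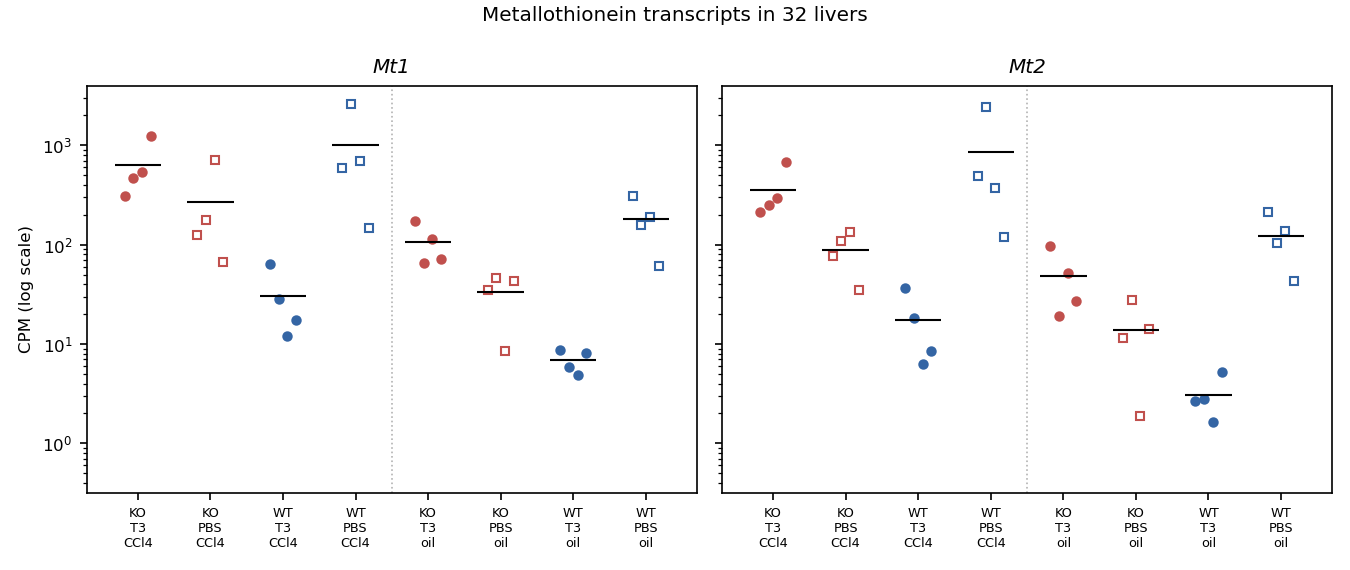
CPM of Mt1 and Mt2 on a log axis in the 32 livers, by group. Each point is 1 mouse and each bar the mean of 4, with KO in red, WT in blue, T3 filled and PBS open. WT T3 livers have the lowest means on either side of the dotted line that separates CCl4 from oil. For Mt2 these are 17.4 and 3.08 CPM, while KO T3 livers have means of 358 and 48.5 CPM. KO PBS livers reach into the WT T3 range of Mt2 on both sides.

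In WT livers both metallothioneins were far lower with T3 than with PBS, whether the mice had received CCl4 or oil. In CCl4-injected WT mice, Mt2 had 36.4, 18.2, 6.33 and 8.55 CPM in T3 livers, against 489.9, 2425, 372 and 119 CPM in PBS livers. In oil-injected WT mice, Mt2 had 2.64, 2.77, 1.66 and 5.27 CPM in T3 livers, against 211, 104, 136 and 42.9 CPM in PBS livers. The ranges of T3 and PBS livers lay apart in both settings. The log2 fold change of Mt2 was -5.61 ± 0.88 (SE) on CCl4, or -4.25 ± 0.73 without WT PBS CCl4 replicate 2, and -5.32 ± 0.88 on oil. Mt1 measured 64.3, 28.2, 12.1 and 17.4 CPM in WT T3 CCl4 livers, against 589, 2573, 688 and 148 CPM in WT PBS CCl4 livers. On oil, Mt1 measured 8.68, 5.83, 4.88 and 8.21 CPM in WT T3 livers, against 311, 158, 189.7 and 60.5 CPM in WT PBS livers. Here too no T3 liver reached the lowest PBS liver, and the log2 fold changes were -5.03 ± 0.82 on CCl4, or -3.97 ± 0.73 without that liver, and -4.70 ± 0.82 on oil. Cell type markers also moved between these groups. Summed hepatocyte markers were at 77258 to 113701 CPM in WT T3 CCl4 livers against 46136 to 67060 in WT PBS CCl4 livers, and at 73087 to 105284 CPM in WT T3 oil livers against 118219 to 170173 in WT PBS oil livers. Summed Kupffer cell markers, all 6 with counts, were at 564 to 860.2 CPM in WT T3 CCl4 livers against 152 to 259.7 in WT PBS CCl4 livers, and at 679 to 1069 CPM in WT T3 oil livers against 78.3 to 168 in WT PBS oil livers. Summed neutrophil markers, all 5 with counts, were at 18.1 to 24.2 CPM in WT T3 CCl4 livers against 25.2 to 311 in WT PBS CCl4 livers. The part of these cells in the metallothionein difference was not tested.

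In KO livers the difference between T3 and PBS ran the other way. Mt2 had 214, 252, 295 and 673 CPM in KO T3 CCl4 livers, against 77.3, 108, 134 and 35.3 CPM in KO PBS CCl4 livers, without overlap. On oil, Mt2 had 96.2, 19.0, 51.7 and 27.2 CPM in KO T3 livers, against 11.6, 27.6, 1.89 and 14.1 CPM in KO PBS livers, and these ranges overlapped. Its log2 fold change was 2.01 ± 0.74 on CCl4 and 1.82 ± 0.75 on oil. For Mt1, KO T3 CCl4 livers had 311, 464, 539 and 1244 CPM and KO PBS CCl4 livers 124, 176, 703 and 67.3 CPM, which overlap because of the third PBS liver. KO T3 oil livers had 173, 65.0, 114 and 71.2 CPM of Mt1 and KO PBS oil livers 34.8, 46.01, 8.44 and 42.7 CPM, without overlap. The log2 fold changes of Mt1 were 1.26 ± 0.70 on CCl4, or 2.38 ± 0.73 without KO PBS CCl4 replicate 3, and 1.68 ± 0.72 on oil. Summed neutrophil markers were at 34.4 to 62.1 CPM in KO T3 CCl4 livers and 18.8 to 31.3 CPM in KO PBS CCl4 livers. Kupffer cell markers were higher with T3 in KO livers too. Their sums were 404 to 624 CPM in KO T3 CCl4 livers against 153 to 342 in KO PBS CCl4 livers. On oil they were 502 to 731 CPM in KO T3 livers against 94.7 to 135 in KO PBS livers. Summed hepatocyte markers overlapped between T3 and PBS in both settings. The part of these cells in the metallothionein difference of KO livers was not tested. KO minus WT, the T3 responses differed by 7.63 ± 1.14 for Mt2 and 6.29 ± 1.07 for Mt1 on CCl4, and by 7.14 ± 1.15 and 6.38 ± 1.08 on oil. Without WT PBS CCl4 replicate 2 the difference on CCl4 was 6.26 ± 0.97 for Mt2 and 5.23 ± 0.97 for Mt1, and without KO PBS CCl4 replicate 3 that of Mt1 was 7.42 ± 1.06.

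Set directly against each other, KO livers held more metallothionein transcript than WT livers on T3 and less on PBS. On T3, the KO against WT log2 difference of Mt2 was 4.36 ± 0.83 on CCl4 and 3.97 ± 0.84 on oil, and that of Mt1 4.39 ± 0.80 and 3.93 ± 0.79, with no overlap between genotypes in any of the 4 cases. On PBS, that of Mt2 was -3.26 ± 0.78 on CCl4 and -3.17 ± 0.79 on oil, and that of Mt1 -1.90 ± 0.72 and -2.45 ± 0.74. On PBS the genotypes overlapped on CCl4 and lay apart on oil. Leaving out WT PBS CCl4 replicate 2, the PBS values on CCl4 were -1.89 ± 0.67 for Mt2 and -0.84 ± 0.68 for Mt1, and without KO PBS CCl4 replicate 3 the Mt1 value was -3.04 ± 0.76.

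The response to CCl4 was a rise of both metallothioneins in 3 of the 4 settings. Mt2 was not chosen by this contrast, but its groups also make up the T3 difference by which Mt2 was chosen. The p-values of Mt2, and of Mt1 that moved with it, are therefore not independent of that choice. Mt2 rose in KO T3 livers (log2 fold change 2.88 ± 0.77, adjusted p = 0.00429 by edgeR's quasi-likelihood test with Benjamini-Hochberg adjustment over all genes, here and below), in KO PBS livers (2.69 ± 0.77, adjusted p = 0.0105) and in WT PBS livers (2.78 ± 0.77, adjusted p = 0.00418). Mt1 rose by 2.60 ± 0.74 (adjusted p = 0.00656), 3.02 ± 0.75 (adjusted p = 0.00399) and 2.48 ± 0.73 (adjusted p = 0.00712) in the same settings. In WT T3 livers the values were 2.49 ± 0.80 for Mt2 (adjusted p = 0.0889) and 2.14 ± 0.74 for Mt1 (adjusted p = 0.125), although CCl4 and oil livers did not overlap. There both were called when the fit was limited to the groups compared (adjusted p = 0.0260 for Mt2 and 0.0237 for Mt1), and DESeq2 called Mt2 (adjusted p = 0.0294).

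Single livers carried part of these rises. Without WT PBS CCl4 replicate 2, which held 2425 CPM of Mt2 and 2573 CPM of Mt1, the values in WT PBS livers were 1.41 ± 0.67 for Mt2 (adjusted p = 0.0987) and 1.41 ± 0.68 for Mt1 (adjusted p = 0.106). Without KO PBS CCl4 replicate 3, which held 703 CPM of Mt1, the Mt1 value in KO PBS livers was 1.89 ± 0.68 (adjusted p = 0.0513). All 5 neutrophil markers had counts in each group, and their summed level was 25.2 to 311 CPM in WT PBS CCl4 livers against 6.14 to 17.3 CPM in WT PBS oil livers, and their part in the metallothionein rise was not tested. The hepatocyte marker sums of these groups, given above, were lower on CCl4 than on oil.

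Differences in the size of the CCl4 response between genotypes and between hormone states are given as a description with no test. Their groups also make up the T3 difference by which Mt2 was chosen. KO minus WT, the CCl4 response differed by 0.39 ± 1.06 for Mt2 and 0.45 ± 1.00 for Mt1 on T3, and -0.09 ± 1.03 and 0.55 ± 0.99 on PBS. The difference in the T3 response between CCl4 and oil was 0.19 ± 1.03 for Mt2 and -0.43 ± 0.99 for Mt1 in KO mice, and -0.30 ± 1.06 and -0.33 ± 1.00 in WT mice. Standard errors near 1 leave differences of several fold in either direction possible. Without WT PBS CCl4 replicate 2 the genotype difference on PBS was 1.28 ± 0.93 for Mt2 and 1.61 ± 0.95 for Mt1, and the difference between CCl4 and oil in WT mice was 1.08 ± 0.96 and 0.74 ± 0.95. Without KO PBS CCl4 replicate 3 the Mt1 values were -0.59 ± 0.93 for the genotypes on PBS and 0.70 ± 0.93 for CCl4 against oil in KO mice.

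Mt1 counts exceeded Mt2 counts in all 32 libraries. The ratio of Mt1 to Mt2 counts was 1.45 to 1.85 in KO T3 CCl4 livers, 1.55 to 2.04 in WT T3 CCl4 livers, 1.61 to 5.25 in KO PBS CCl4 livers and 1.06 to 1.85 in WT PBS CCl4 livers. On oil it was 1.79 to 3.42 in KO T3 livers, 1.56 to 3.29 in WT T3 livers, 1.67 to 4.47 in KO PBS livers and 1.39 to 1.52 in WT PBS livers. The highest ratio, 5.25, was that of KO PBS CCl4 replicate 3, where Mt1 stood above its group and Mt2 did not. The lowest, 1.06, was that of WT PBS CCl4 replicate 2, the liver with the most metallothionein. Per kilobase of annotated exon, median levels over the 32 livers were 80.4 CPM per kb for Mt2 and 74.3 for Mt1, 22.6 for Slc39a14, 19.8 for Slc39a4, 12.3 for Slc30a10, 8.41 for Slc30a1, 2.03 for Mtf1 and 0.924 for Slc39a10. The exon length of Mt1, 1246 bases, covers its whole span because transcripts with retained introns are annotated, which lowers its value per length. Mt3 and Mt4, the other mouse metallothioneins, held 45 and 12 counts over all libraries and were not tested.

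**Figure D2:**
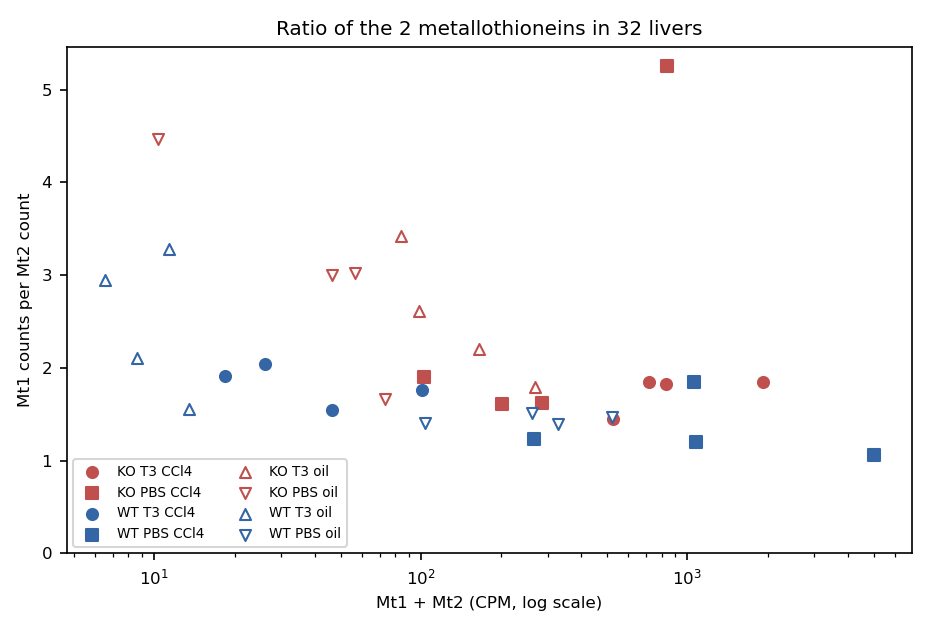
Mt1 counts per Mt2 count in each of the 32 livers against the sum of both in CPM (log axis), 1 symbol per group with KO in red and WT in blue. Ratios lie between 1.06 in the liver with the most metallothionein and 5.25 in KO PBS CCl4 replicate 3.

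The group means of Mtf1 stayed within a 1.62-fold range. Mtf1 (ENSMUSG00000028890; chromosome 4, 124802104 to 124849800) ranged from 12.5 to 36.8 CPM over the 32 livers, with group means between 23.9 ± 9.03 CPM in WT PBS CCl4 livers and 14.8 ± 2.10 CPM in KO T3 oil livers. It rose with CCl4 in KO T3 livers, with 15.4, 20.2, 26.8 and 23.5 CPM in CCl4 livers against 14.4, 12.5, 14.6 and 17.6 CPM in oil livers (log2 fold change 0.54 ± 0.20, adjusted p = 0.0365). That call was lost without any 1 of 5 of these 8 livers, at adjusted p-values up to 0.146. In WT PBS livers the CCl4 value was 0.48 ± 0.20 (adjusted p = 0.0528), and 0.20 ± 0.19 without replicate 2 of the CCl4 group, which held the 36.8 CPM. With T3, Mtf1 measured -0.37 ± 0.20 in WT CCl4 livers (adjusted p = 0.142) and -0.06 ± 0.20 in WT oil livers (adjusted p = 0.848). Transcript counts do not measure the activity of the MTF1 protein, which was not tested. Of its exon bases 8.1% overlap the antisense gene 1110065P20Rik, which held 183 to 910 counts per library.

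Among the importers, Slc39a14 (ENSMUSG00000022094; chromosome 14, 70303469 to 70351425), which brings zinc, manganese and iron into hepatocytes and is induced by interleukin 6, fell with T3 in WT livers. On oil, WT T3 livers had 132, 139, 118 and 126 CPM, against 296, 322, 420.4 and 232 CPM in WT PBS livers (log2 fold change -1.30 ± 0.24, adjusted p = 9.39e-05). Every T3 liver lay below every PBS liver, and the call held in each of the alternatives run. On CCl4, WT T3 livers had 223, 216, 167 and 120.4 CPM, against 271, 508, 235 and 223 CPM in WT PBS livers (-0.77 ± 0.24, adjusted p = 0.0110). Without WT PBS CCl4 replicate 2, the liver at 508 CPM, this was -0.43 ± 0.21 (adjusted p = 0.122), and without WT T3 CCl4 replicate 4 it was -0.60 ± 0.25 (adjusted p = 0.0560).

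In KO livers Slc39a14 had 237, 341, 319 and 524 CPM with T3 and CCl4, against 280.4, 280.1, 292 and 239 CPM with PBS and CCl4 (0.38 ± 0.24, adjusted p = 0.470). With T3 and oil KO livers had 219, 227, 217 and 214 CPM, against 281, 412, 297 and 248 CPM with PBS and oil (-0.50 ± 0.24, adjusted p = 0.150), and these did not overlap. The genotypes differed in the T3 response on CCl4 by 1.15 ± 0.34, KO minus WT (adjusted p = 0.0142), but not without WT PBS CCl4 replicate 2 (0.81 ± 0.29, adjusted p = 0.0524) or KO T3 CCl4 replicate 4 (0.89 ± 0.32, adjusted p = 0.0511). On the compared groups alone the genotype difference on CCl4 was not called either. On oil the same difference was 0.81 ± 0.34 (adjusted p = 0.119), and 0.80 ± 0.23 when fitted on the compared groups alone (adjusted p = 0.0249). KO livers held more Slc39a14 than WT livers on T3, by 0.97 ± 0.24 on CCl4 (adjusted p = 0.00389) and by 0.77 ± 0.24 on oil (adjusted p = 0.0261). The call on CCl4 held in each alternative run, and the one on oil was lost under total scaling and without 4 of the 32 libraries, one at a time (adjusted p up to 0.0734). On PBS the KO against WT values were -0.18 ± 0.24 on CCl4 and -0.04 ± 0.24 on oil, neither called. CCl4 raised Slc39a14 in KO T3 livers (0.70 ± 0.24, adjusted p = 0.0215), though not without KO T3 CCl4 replicate 4 (0.45 ± 0.24, adjusted p = 0.138).

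Slc39a4 (ENSMUSG00000063354; chromosome 15, 76612383 to 76617384), best known as the zinc importer of the gut, responded to T3 in WT livers in a way that depended on the injection. On CCl4, WT T3 livers had 109, 49.8, 63.03 and 75.4 CPM, against 40.4, 39.99, 52.5 and 43.7 CPM in WT PBS livers (log2 fold change 0.75 ± 0.22, adjusted p = 0.00806). On oil, WT T3 livers had 56.4, 39.5, 33.95 and 55.2 CPM, against 81.4, 84.4, 46.3 and 54.4 CPM in WT PBS livers (-0.53 ± 0.22, adjusted p = 0.0675). The ranges overlapped in both settings. The call on CCl4 was lost without WT T3 CCl4 replicate 1, the liver at 109 CPM (0.51 ± 0.22, adjusted p = 0.0650), and with libraries scaled by their totals (0.38 ± 0.22, adjusted p = 0.150). The difference between these T3 responses, CCl4 minus oil, was 1.28 ± 0.32 (adjusted p = 0.00532). This call held without each of the 32 libraries in turn, but not with libraries scaled by their totals (0.76 ± 0.32, adjusted p = 0.0579), which moved the median of all genes from -0.05 to -0.53. CCl4 lowered Slc39a4 in WT PBS livers (-0.59 ± 0.22, adjusted p = 0.0306), a call lost in 4 of the 6 alternatives other than leaving out 1 library, with -0.18 ± 0.22 under total scaling. In KO mice T3 values were 0.52 ± 0.22 on CCl4 (adjusted p = 0.230) and 0.45 ± 0.22 on oil (adjusted p = 0.168). KO T3 oil livers had 68.5, 65.2, 83.7 and 93.5 CPM, all above the WT T3 oil livers (0.75 ± 0.22, adjusted p = 0.0207), and the genotypes differed in the T3 response on oil by 0.97 ± 0.32 (adjusted p = 0.0415). Total scaling ended both calls (0.63 ± 0.23 and 0.87 ± 0.32). The first was also lost without 4 of the 32 libraries, one at a time. The second was also lost with no filter on low counts. It was lost too without 14 of the 32 libraries, one at a time, with values of 0.82 to 1.10.

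Slc39a10 (ENSMUSG00000025986; chromosome 1, 46807544 to 46892852), a zinc importer of the cell surface, was the lowest of the 8 genes per length and rose with CCl4 in KO T3 livers. There CCl4 livers had 5.11, 5.99, 9.81 and 7.77 CPM, against 3.92, 4.55, 4.83 and 2.96 CPM in oil livers (log2 fold change 0.82 ± 0.31, adjusted p = 0.0348), without overlap. The call was lost without any 1 of 4 of these 8 livers, with adjusted p-values up to 0.143. In WT livers the CCl4 values were -0.04 ± 0.30 on T3 and 0.21 ± 0.30 on PBS, and in KO PBS livers the value was 0.68 ± 0.30 (adjusted p = 0.0806), and 0.04 ± 0.23 without replicate 3 of the CCl4 group, which held 21.8 CPM. Whether the CCl4 response differed between settings was tested as a genotype difference, at 0.86 ± 0.43 on T3 (adjusted p = 0.176) and 0.47 ± 0.42 on PBS (adjusted p = 0.758).

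**Figure D3:**
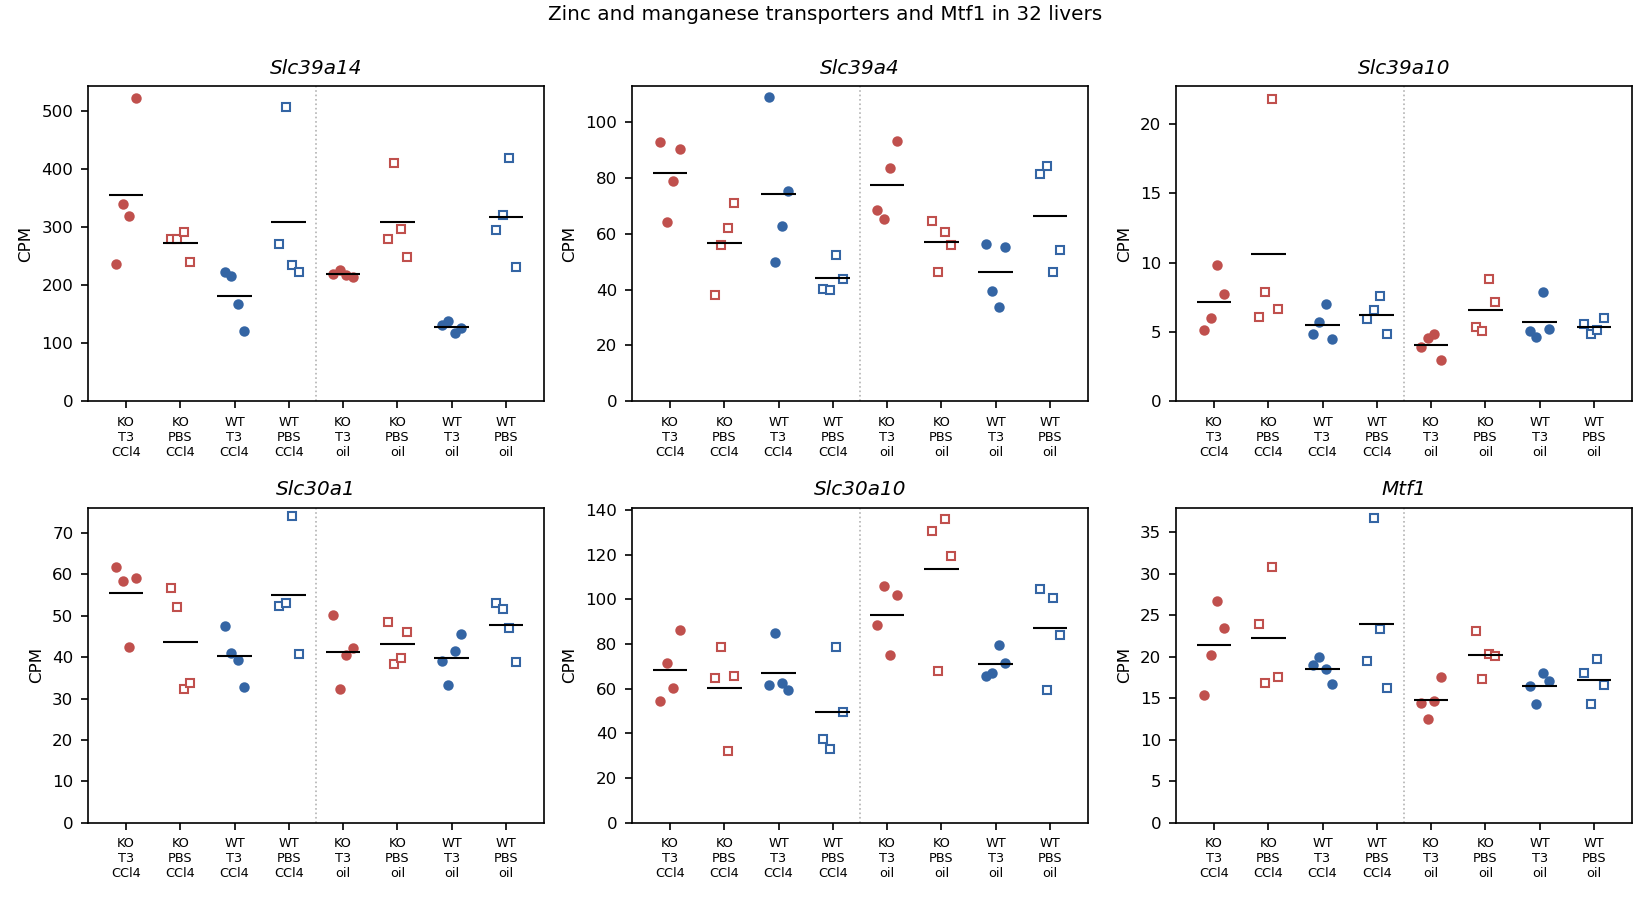
CPM of the 5 transporter genes and Mtf1 in the 32 livers, by group, on linear axes that start at 0. Points are mice and bars means of 4, with KO in red, WT in blue, T3 filled and PBS open. Slc39a14 is lowest in the 4 WT T3 oil livers, at 118 to 139 CPM, and Slc30a10 has its lowest group mean, 49.7 CPM, in WT PBS CCl4 livers.

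Among the exporters, Slc30a1 (ENSMUSG00000037434; chromosome 1, 191906767 to 191913247), which moves zinc out across the cell surface and whose promoter window above holds 1 core, stayed within a 2.29-fold range over all livers. It fell with T3 in WT CCl4 livers, with 47.6, 41.002, 39.2 and 32.8 CPM in T3 livers against 52.3, 53.1, 74.1 and 40.7 CPM in PBS livers (log2 fold change -0.45 ± 0.18, adjusted p = 0.0478). This call lay at the threshold and was lost without 26 of the 32 libraries, one at a time, with values of -0.57 to -0.29. In KO CCl4 livers, T3 livers had 61.7, 58.5, 42.5 and 59.2 CPM, against 56.8, 52.1, 32.4 and 33.7 CPM in PBS livers (0.34 ± 0.18, adjusted p = 0.377). Genotypes differed in this response by 0.80 ± 0.26 (adjusted p = 0.0269). The call was lost without any 1 of 6 libraries, with values of 0.63 to 0.95. It was also lost without both farthest libraries and on the compared groups alone. On oil they differed by 0.20 ± 0.26 (adjusted p = 0.682). Of the Slc30a1 exon bases 8.9% overlap the antisense gene 1700034H15Rik.

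Slc30a10 (ENSMUSG00000026614; chromosome 1, 185454848 to 185468762), the exporter that clears manganese from hepatocytes, fell with CCl4 in mice on PBS. In KO PBS mice, CCl4 livers had 65.0, 78.9, 31.9 and 65.6 CPM, against 131, 67.7, 136 and 119.6 CPM in oil livers (log2 fold change -0.91 ± 0.25, adjusted p = 0.00880). In WT PBS mice, CCl4 livers had 37.6, 33.03, 78.7 and 49.6 CPM, against 105, 59.6, 101 and 84.0 CPM in oil livers (-0.81 ± 0.25, adjusted p = 0.0108). One CCl4 liver reached the oil range in each genotype. Without WT PBS CCl4 replicate 2 the WT value was -0.66 ± 0.26 (adjusted p = 0.0528), and under total scaling it was -0.40 ± 0.24 (adjusted p = 0.149). On T3 the CCl4 values were -0.45 ± 0.25 in KO (adjusted p = 0.163) and -0.08 ± 0.25 in WT livers (adjusted p = 0.940). The difference in the T3 response between CCl4 and oil was 0.47 ± 0.36 in KO and 0.73 ± 0.36 in WT mice, neither called. Of its exon bases 9.1% overlap the gene Gm2061 on the other strand.

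**Figure D4:**
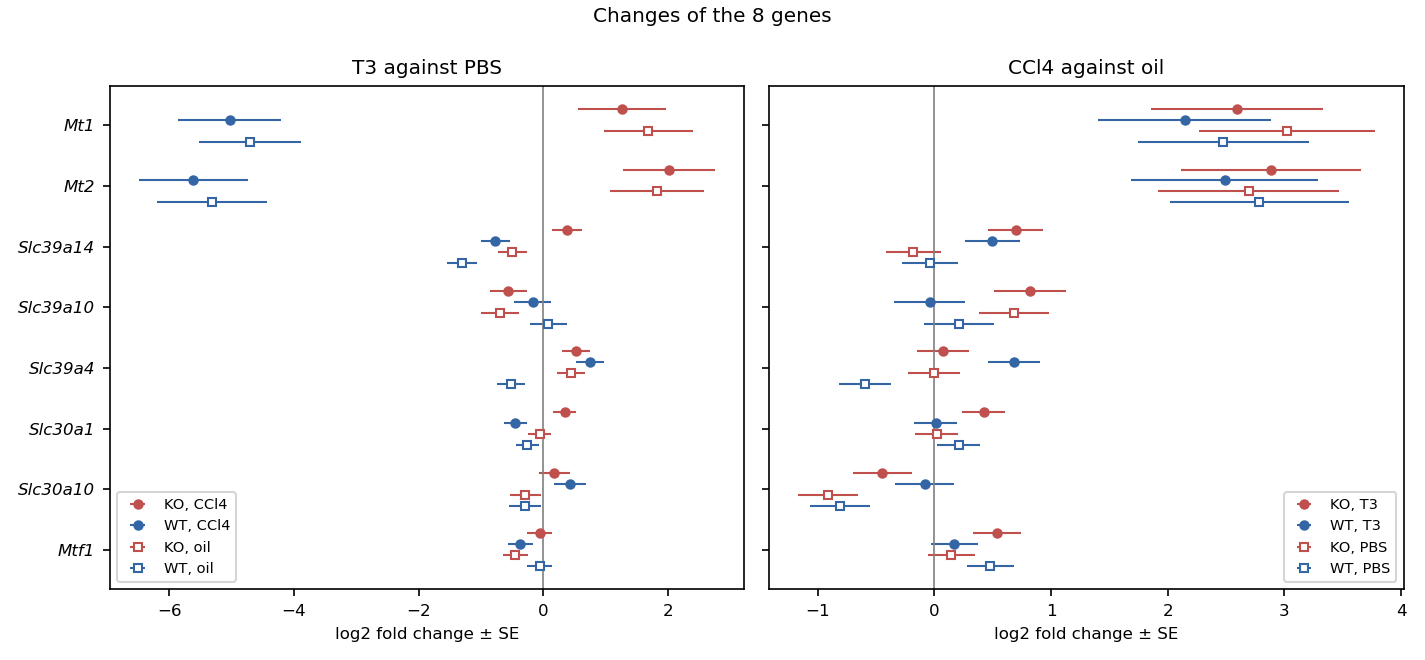
Log2 fold change with its standard error for the 8 genes, with T3 against PBS on the left and CCl4 against oil on the right, in the 4 settings of each. The metallothioneins lie between -5.61 and -4.70 with T3 in WT livers and between 1.26 and 2.01 in KO livers, and between 2.14 and 3.02 with CCl4 in all settings.

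The counts of members called were read against all genes. With T3, of the 6 members other than the metallothioneins, 3 were called in WT CCl4 livers (41.7% of all genes tested were) and 1 in WT oil livers (35.3%). In KO mice edgeR called 0 of the 6 on CCl4 (2.54% of all genes) and 0 on oil (18.7%), as DESeq2 did, while 1 and 3 had an unadjusted p under 0.05. Between genotypes 1 of the 6 was called on T3 and CCl4 (22.9%) and 2 on T3 and oil (16.3%). On PBS edgeR and DESeq2 each called 0 of the 6 on CCl4 (2.25%) and on oil (0.538%), where 1 and 0 had an unadjusted p under 0.05. The genotype difference in the T3 response was called for 2 of the 6 on CCl4 (22.7%) and 1 on oil (12.2%). With CCl4, where all 8 were tested, 5 were called in KO T3 (39.6%), 3 in KO PBS (31.1%) and 4 in WT PBS livers (46.2%). In WT T3 livers (3.4%) edgeR called 0 of 8 and DESeq2 1, and 4 had an unadjusted p under 0.05. For the genotype difference in the CCl4 response, both tools called 0 of 8 on T3 (13.5%) and on PBS (0.0192%), and 0 had an unadjusted p under 0.05. The T3 response differed between CCl4 and oil for 1 of 8 in WT mice (23.9%) and, by both tools, for 0 of 8 in KO mice (3.71%), where 1 had an unadjusted p under 0.05. The metallothioneins are among these 8, although their groups also make up the T3 difference by which Mt2 was chosen. 

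Beside each count of a gene list below stands the share of all genes called in the same comparison. Scaling by library totals in place of TMM moved the median of all genes to -0.42 for T3 in WT CCl4 livers and to 0.43 for CCl4 in WT PBS livers, so list counts under it are given where they turn. The lists were also counted without the 2 farthest libraries. Of the 10 other ZIP importers tested, CCl4 in WT PBS livers raised 4 and lowered 1, a share near the 46.2% of all genes called (median log2 fold change 0.06, against 0.04 over all genes). Slc39a6 rose by 2.60 ± 0.36 (adjusted p = 3.54e-06) to 22.9 CPM on average, against 3.78 CPM on oil, and Slc39a13, an intracellular zinc transporter, by 0.65 ± 0.14 (adjusted p = 0.000578). Slc39a8, the closest relative of Slc39a14, fell by 0.89 ± 0.19 on the log2 scale (adjusted p = 0.000436). T3 in WT CCl4 livers lowered 2 of the 10, where 41.7% of all genes were called (median -0.16, against -0.06 over all genes), Slc39a6 by -2.58 ± 0.36 (adjusted p = 1.99e-06) and Slc39a7, a zinc transporter of the endoplasmic reticulum, by -0.89 ± 0.24 (adjusted p = 0.00349). In WT oil livers, where 35.3% of all genes were called, Slc39a13 rose by 0.48 ± 0.14 (adjusted p = 0.00866) and Slc39a11 fell by 0.83 ± 0.33 (adjusted p = 0.0491). On CCl4 the T3 response differed between genotypes for 3 of the 10 (22.7% of all genes), all higher in KO, with 2.56 ± 0.48 for Slc39a6, 0.86 ± 0.22 for Slc39a1 and 0.63 ± 0.20 for Slc39a13. Under total scaling the T3 count was 5 lower of 10.

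Of the 6 other ZnT exporters tested, CCl4 raised 5 in KO T3 livers, where 39.6% of all genes were called (median log2 fold change 1.11, against -0.0035 over all genes). Slc30a7 and Slc30a5, which load zinc into the secretory pathway, rose by 1.15 ± 0.14 (adjusted p = 1.39e-06) and 1.07 ± 0.16 (adjusted p = 1.36e-05), and Slc30a3 by 2.29 ± 0.53 to 2.34 CPM on average, against 0.464 CPM on oil. In WT PBS livers (46.2% of all genes called) 2 rose and 1 fell, with Slc30a4 at 1.90 ± 0.31 (adjusted p = 3.50e-05), Slc30a7 at 0.69 ± 0.14 and Slc30a6 at -0.30 ± 0.10. T3 in WT CCl4 livers (41.7% of all genes called) raised 2 and lowered 2, with -1.75 ± 0.31 for Slc30a4, -0.63 ± 0.14 for Slc30a7, 0.33 ± 0.10 for Slc30a9 and 0.31 ± 0.10 for Slc30a6. That response differed between genotypes for 5 of the 6 (22.7% of all genes), higher in KO for 4, with Slc30a7 at 0.85 ± 0.19 and Slc30a5 at 0.85 ± 0.22, and lower for Slc30a9 (-0.50 ± 0.14). Under total scaling 0 rose and 4 fell with T3 in WT CCl4 livers, and 5 rose and 0 fell with CCl4 in WT PBS livers. Without the 2 farthest libraries both calls of Slc30a6 were lost (adjusted p = 0.0535 with T3 and 0.0510 with CCl4). So was the call of Slc30a3 for the genotype difference in the T3 response on CCl4 (2.09 ± 0.79, adjusted p = 0.0513).

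Genes of copper handling and of manganese, iron and cadmium transport were counted as neighbours in metal metabolism. T3 in WT CCl4 livers raised 4 of 10 copper genes, a share near the 41.7% of all genes called, among them Ccs, the copper chaperone of superoxide dismutase (1.39 ± 0.27), Slc31a1, the copper importer (0.79 ± 0.20), and the chaperone gene Atox1 (0.56 ± 0.14). Cp, also among the 4, went from 0.56 to 0.43 ± 0.22 without the 2 farthest libraries (adjusted p = 0.119). CCl4 in WT PBS livers lowered 4 and raised 1, again near the share of all genes (46.2%), with Slc31a1 at -1.03 ± 0.20, Atp7b, which exports copper into bile, at -0.96 ± 0.25, Sod1 at -0.52 ± 0.13 and Slc31a2 at 0.43 ± 0.11. T3 in WT oil livers, where 35.3% of all genes were called, lowered Sod1 (-0.72 ± 0.13) and Atp7b (-0.93 ± 0.25) and raised 3 others, with Slc31a2 at 0.48 ± 0.11. Of the 6 manganese, iron and cadmium genes, T3 in WT CCl4 livers raised Tfr2 (0.68 ± 0.20) and Tfrc (1.07 ± 0.43; adjusted p = 0.0603 without the 2 farthest libraries), and CCl4 in WT PBS livers raised Atp13a1 (0.47 ± 0.12) and lowered Tfr2 (-0.73 ± 0.20). Both lists turned under total scaling, with 2 copper genes higher and 3 lower for T3 in WT CCl4 livers and 4 higher and 2 lower for CCl4 in WT PBS livers, and with 0 higher and 2 lower, and 2 higher and 0 lower, of the other list.

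Genes that answer to the other known inducers of metallothioneins were set beside them. Of 17 acute-phase genes of the interleukin 6 and STAT3 pathway, T3 raised 12 in KO CCl4 livers, where 2.54% of all genes were called (median log2 fold change 1.64, against -0.03 over all genes), with Saa3 at 3.73 ± 0.46, Hp at 2.61 ± 0.36 and Lcn2 at 4.87 ± 0.68. In WT CCl4 livers, where 41.7% of all genes were called, T3 lowered 4 and raised 1 (median -0.14, against -0.06, and 0.065 without the 2 farthest libraries), with Apcs at -2.45 ± 0.42, Socs3 at -1.28 ± 0.32, Saa3 at -1.49 ± 0.43 and Orm1 at 0.93 ± 0.34. That response differed between genotypes for 14 of the 17 (22.7% of all genes), all higher in KO, with Saa3 at 5.21 ± 0.62, Apcs at 4.31 ± 0.59 and Lcn2, which neutrophils also express, at 6.5 ± 0.90 (5.86 ± 0.90 without the 2 farthest libraries). Without the 2 farthest libraries it was called for 9, and on the compared groups alone for 8, where T3 in KO CCl4 livers gave 4 in place of 12. With T3 in WT CCl4 livers Lcn2, called lower, went from -1.63 to -0.96 ± 0.59 without the 2 farthest libraries (adjusted p = 0.208). Under total scaling T3 in WT CCl4 livers lowered 7 and raised 0. Saa genes are near copies of each other, so their single values are uncertain. In WT oil livers, where 35.3% of all genes were called, T3 raised 4 of the 17 and lowered 2 (median 0.51, against -0.02), with Hpx at 1.17 ± 0.27, Orm1 at 1.40 ± 0.35, Apcs at -2.89 ± 0.43 and Il6ra at -1.11 ± 0.28. In oil-injected mice the median genotype difference in the T3 response of these 17 genes was -0.07, against 0.02 over all genes. There 2 were called, Apcs (2.43 ± 0.57) and Socs3 (1.44 ± 0.46), both higher in KO (12.2% of all genes). CCl4 raised 14 of the 17 in KO T3 livers (39.6% of all genes called) and 5 in KO PBS livers (31.1%). It raised 10 in WT PBS livers (46.2%) and 4 in WT T3 livers (3.4%), and lowered 0 in each setting. Without the 2 farthest libraries Socs3 lost its call in both PBS settings.

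Of 10 genes that respond to glucocorticoids, T3 lowered 4 in KO oil livers, where 18.7% of all genes were called (median -1.15, against 0.01 over all genes), with Per1 at -2.11 ± 0.65, Tsc22d3 at -1.47 ± 0.35 and Sgk1 at -1.41 ± 0.40. In WT oil livers 4 of 10 were called with T3, near the 35.3% of all genes. It lowered 3, among them Per1 (-2.41 ± 0.66) and Tsc22d3 (-1.15 ± 0.35), and raised Sult1e1, which had 93.4 CPM on average in T3 livers and 0.163 CPM in PBS livers. In WT CCl4 livers (41.7% of all genes called) 5 rose and 3 fell with T3, with Sgk1 at -2.25 ± 0.41, Dusp1 at -1.45 ± 0.41, Sult1e1 at 6.59 ± 1.21 (7.58 ± 1.29 without the 2 farthest libraries) and Tat at 1.57 ± 0.44, and total scaling gave 3 higher and 4 lower. Per1, 1 of the 3 that fell, went from -1.85 to -0.59 ± 0.55 without the 2 farthest libraries (adjusted p = 0.428). Of 10 genes of the oxidative stress response, CCl4 raised 6 and lowered 1 in WT PBS livers, where 46.2% of all genes were called (median 1.10, against 0.04), with Slc7a11 at 7.97 ± 0.74, Hmox1 at 2.13 ± 0.22, Srxn1 at 2.47 ± 0.33 and Gclm at -0.58 ± 0.22. T3 in WT CCl4 livers (41.7% of all genes called) lowered 5 of them, Slc7a11 by -3.47 ± 0.53 and Srxn1 by -2.04 ± 0.33 among them, and raised 2, with Me1, itself a known T3 target, at 3.07 ± 0.35 and Osgin1 at 1.92 ± 0.44. The part of these pathways in the metallothionein levels was not tested.

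Patterns most like that of Mt2 were ranked by Pearson's r of log2 CPM over the 32 libraries among the 9791 genes that average at least 5 CPM. The libraries share the 8 groups, so r is a description and no test is given. Mt1 had r = 0.982 with Mt2 and 0.926 after the group means were taken out. Apart from it, Il1rn, the interleukin 1 receptor antagonist, was most like Mt2 (r = 0.904, and 0.787 within groups), followed by Plec (0.846), Arhgef40 (0.840), Arsa (0.839, but 0.182 within groups) and Mafk (0.834). Without the 2 farthest libraries these 5 had r of 0.796 to 0.885. Il1rn averaged 48.3 ± 14.1 CPM in KO T3 CCl4 livers, 17.6 ± 4.74 in KO PBS CCl4 livers, 5.23 ± 2.71 in WT T3 CCl4 livers and 73.0 ± 86.8 in WT PBS CCl4 livers. On oil it averaged 9.86 ± 4.32 CPM in KO T3, 2.44 ± 0.568 in KO PBS, 3.66 ± 1.97 in WT T3 and 8.20 ± 0.920 in WT PBS livers. Of the other members, Slc39a14 was nearest to Mt2 (0.728), then Slc30a1 (0.600), Mtf1 (0.442), Slc39a10 (0.159) and Slc39a4 (0.135), while Slc30a10 ran the other way (-0.419). Without the 2 farthest libraries these values were 0.681, 0.666, 0.269, 0.087, 0.266 and -0.281, in that order. Slc39a14 itself was most like Dtnbp1 (0.868), Tmc7 (0.862), Baiap2l1 (0.845), Serpina7 (0.834) and Dhrs11 (0.833). Slc30a10 was most like Dcun1d1 (0.802), Abcb10 (0.801), Cxcl12 (0.794), Pcp4l1 (0.787) and Akap1 (0.787), with r of 0.664 to 0.7775 without the 2 farthest libraries. For Slc39a4 the nearest were Rfc2 (0.644), Crip2 (0.636), Cdc26 (0.630), Itsn1 (0.610) and Trf (0.584), with r of 0.247 to 0.600 within groups.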

How the data were processed

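What the authors deposited is a single table of unscaled gene counts covering the 32 libraries. The submitters' processing notes name STAR 2.7.9a, cutadapt, Trim Galore, FastQC 0.11.5 and the build GRCm38, in no stated order. The sources used here give no counting tool and no strand setting. Per the labels' protocols, 2 library kits were used, 1 of them stranded, without saying for which libraries, so a kit batch cannot be told apart from the groups. No per-sample column of another series was in the table.

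Symbols, positions and exon lengths came from GENCODE vM21 on GRCm38 and promoter sequences from RefSeq (GRCm38.p6). Counts were fitted with edgeR 4.0.16 (R 4.3.3, limma 3.58.1): TMM factors, filterByExpr with a minimum count of 10 and minimum total of 15, all 8 groups in 1 quasi-likelihood fit, and 18 contrasts, 12 differences and 6 interactions. P-values were Benjamini-Hochberg adjusted over the 15599 genes tested and called under 0.05. CPM used the TMM factors. Log2 CPM used a prior count of 2. The fit was tested on simulated data. Total counts were 16985162 to 26118055 per library, and counting error is only part of the spread between mice. Alternatives, also run for the gene lists after the data were seen except for single left-out libraries (group means and likeness only without the farthest), were total-count scaling, no filter, a replicate block, both farthest libraries left out, only the compared groups, DESeq2 1.42.0 and each library left out in turn.

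The members, gene lists and marker lists were chosen with earlier results of these data known. Named genes are all 8 members, the 3 called genes of a list with the smallest adjusted p, up to 2 called against its majority, and the 5 genes most like Mt2, Slc39a14, Slc39a4 or Slc30a10. Some list genes that lost a call without the 2 farthest libraries are named too.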

Additional observations from a re-analysis of the deposited data

Results flagged for a closer look

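In each group of 4 livers the highest and lowest value of each of the 8 genes was compared with the rest by Dixon's test at the 95% level. Of 64 sets of 4 values, 6 held a liver that stood far from the other 3. For independent, normally distributed values chance alone flags about 1 set in 20. The CPM used here were not on a log scale and the sets share livers, so that rate need not hold. Mt1 had 703 CPM in KO PBS CCl4 replicate 3, against 67.3 to 176 in the other 3 livers. Slc39a10 had 21.8 CPM in the same liver, against 6.05 to 7.90 in the others. Mt2 had 2425 CPM in WT PBS CCl4 replicate 2, against 119 to 489.9 in the others. Slc39a14 had 508 CPM in the same liver, against 223 to 271 in the others. These are the same pair of livers that lay farthest from their groups over all genes. Slc30a1 had 42.5 CPM in KO T3 CCl4 replicate 3, against 58.5 to 61.7 in the others. Slc30a10 had 84.7 CPM in WT T3 CCl4 replicate 2, against 59.5 to 62.7 in the others.

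The T3 response differed between genotypes, by edgeR's test of the interaction over all genes, for Slc39a14 on CCl4 (1.15 ± 0.34, KO minus WT on the log2 scale, adjusted p = 0.0142), for Slc30a1 on CCl4 (0.80 ± 0.26, adjusted p = 0.0269) and for Slc39a4 on oil (0.97 ± 0.32, adjusted p = 0.0415). It differed between CCl4 and oil in WT mice for Slc39a4 (1.28 ± 0.32, CCl4 minus oil, adjusted p = 0.00532). Of the members tested, 2 of 6 were called between genotypes on CCl4 (22.7% of all genes) and 1 of 6 on oil (12.2%). Between CCl4 and oil in WT mice it was 1 of 8 (23.9%), with the metallothioneins among the 8. With each of the 32 libraries left out in turn, the genotype calls of Slc39a14, Slc30a1 and Slc39a4 were lost in 2, 6 and 14 cases. That of Slc39a4 between CCl4 and oil was lost only under total scaling.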

How the results depend on the processing

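Of 23 called values of single genes, 874 recomputed values under the alternatives held no reversal of sign, and 99 lost the call. The number of members called moved by over 1.5 times as follows. With the fit limited to the groups compared it was 4 in place of 0 for T3 in KO oil livers, 1 in place of 3 for T3 in WT CCl4 livers, 2 in place of 0 for CCl4 in WT T3 livers, 2 in place of 4 for CCl4 in WT PBS livers, 2 in place of 1 for the genotypes on T3 and CCl4, 0 in place of 2 for the genotype difference in the T3 response on CCl4 and 2 in place of 1 for that on oil. Without both farthest libraries these counts were 2, 1, 2, 1, 2, 1 and 2, and they were 1 in place of 0 for the genotype difference in the CCl4 response on T3 and 2 in place of 1 for the difference between CCl4 and oil in the T3 response of WT mice. Total-count scaling gave 2 in place of 1 for the genotypes on T3 and CCl4, 0 in place of 2 on T3 and oil, and 0 in place of 1 for the genotype difference in the T3 response on oil, where fitting with no filter also gave 0. DESeq2 gave 1 in place of 0 for CCl4 in WT T3 livers. The cause was not tested.

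With each library left out in turn, counts ranged from 0 to 1 for T3 in KO oil livers, 1 to 4 in WT CCl4 and 1 to 2 in WT oil livers. For CCl4 they ranged from 2 to 5 in KO T3, 2 to 4 in KO PBS, 0 to 1 in WT T3 and 0 to 5 in WT PBS livers. Between genotypes they ranged from 1 to 2 on T3 and CCl4 and 0 to 2 on T3 and oil. They ranged from 0 to 2 and from 0 to 1 for the genotype difference in the T3 response on CCl4 and on oil, and from 1 to 2 for the difference between CCl4 and oil in WT mice.

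Replicate numbers showed no consistent pairing of the mice, though correlated deviations between libraries cannot exclude one. Of 112 same-numbered pairs of libraries, 13 had deviations correlated above 0.1 (median -0.0093, from -0.348 to 0.511). A replicate block gave 1 in place of 0 members called for T3 in KO oil livers (Slc39a10, -0.68 ± 0.23, adjusted p = 0.0405) and left the other counts as they were.

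Over all genes, calls with only the compared groups numbered 3 in place of 351 for the genotypes on PBS and CCl4, 86 in place of 396 for T3 in KO CCl4 livers, 4143 in place of 6506 for T3 in WT CCl4 livers, 4504 in place of 7202 for CCl4 in WT PBS livers, 818 in place of 531 for CCl4 in WT T3 livers, 2300 in place of 3538 for the genotype difference in the T3 response on CCl4, 3489 in place of 2099 for that in the CCl4 response on T3 and 0 in place of 3 for that on PBS. DESeq2 called 691, 681 and 144 genes for the genotypes on PBS and CCl4, T3 in KO CCl4 livers and the genotypes on PBS and oil, the last against 84. Total-count scaling called 6004 in place of 3722 for the difference between CCl4 and oil in WT mice. With 4 mice a group, standard errors near 0.8 (log2) limit the metallothionein values more than depth does.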
